A study of Mus musculus with 3 samples.

Results

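The RUNX transcription factors and their partner CBFB, together with ligand, receptor and target genes of Notch signalling, were examined for LMX1B chromatin occupancy in the embryonic mouse limb. The 9 genes (Runx1, Runx2, Runx3, Cbfb, Jag1, Notch1, Notch2, Hes1 and Hey1) were chosen by name for their roles in skeletal differentiation and limb Notch signalling, out of 21887 protein-coding genes. The choice was made with earlier results of these data known, so shares of all domains beside the counts are a description only. An interval, that is a region listed by the authors as bound, was counted for a gene when its midpoint lay in the gene's domain. A domain was the gene body plus the flanking sequence on each side, as far as the neighbouring protein-coding gene or 1 Mb. Domains of neighbours overlap, so an interval between 2 gene bodies could count for both genes. The 9 domains held 18 of the 4501 intervals of the validation ChIP and 10 of the 1287 intervals of the first ChIP. Both ChIPs were made with the polyclonal LMX1B antibody BMO8 on limb buds of C57BL/6 embryos at embryonic day 12.5, with fore- and hindlimb buds pooled (2 runs of 48 buds). Chromatin was fixed with 1% formaldehyde for 15 min and sheared to 300 to 500 bp, and the labels do not say whether the 2 ChIPs came from separate chromatin preparations. The validation ChIP has no genotype in its labels or track names, and the first ChIP is marked as wild type by its track name. Each group is 1 sample, so there was no spread between replicates, no test was made, and all values describe these lists. Whole buds hold dorsal and ventral mesenchyme, ectoderm, vessels, blood and muscle precursors, so an interval cannot be tied to 1 cell type, and interval lists carry no expression values with which to check the tissue.

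LMX1B is a LIM homeodomain protein made in dorsal limb mesenchyme, where it directs dorsal pattern. RUNX proteins bind DNA through the Runt domain together with CBFB, which does not bind DNA itself. RUNX2 directs osteoblast differentiation and, with RUNX3, chondrocyte maturation, while RUNX1 is best known for blood formation and is also found in early skeletal mesenchyme. In Notch signalling a ligand such as JAG1 on 1 cell engages a receptor such as NOTCH1 or NOTCH2 on its neighbour, the receptor is cleaved, and its intracellular part enters the nucleus with RBPJ to switch on repressors of the HES and HEY families. In limb mesenchyme Notch signalling holds back differentiation of skeletal progenitors.

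Of the 9 domains, 5 held an interval of the validation ChIP (Runx1, Runx2, Notch2, Jag1 and Hes1), against 15% of all protein-coding domains. An interval of the first ChIP lay in 5 domains (Runx1, Runx3, Notch2, Jag1 and Hes1), against 6% of all. A shared interval, meaning a first-ChIP interval that overlapped a validation interval by at least 1 bp, lay in 4 domains, those of Runx1, Notch2, Jag1 and Hes1, against 3.39% of all domains. Of these, Runx1, Notch2 and Jag1 held 2 shared intervals each, against 0.795% of all domains with 2 or more. Domain length moved with these counts. The domains of Runx1, Jag1, Hes1 and Runx2 measured 1042, 1035, 593 and 535 kb. Of these 4 domains of 500 kb or longer, 4 held a validation interval, 3 a first-ChIP interval and 3 a shared one, against 53%, 25.3% and 19.4% of all domains of that length. Runx1 and Jag1 were the 2 of these 4 with 2 shared intervals, against 6.64% of all such domains with 2 or more. The other 5 domains, of Runx3 (276 kb), Notch2 (194 kb), Notch1 (135 kb), Hey1 (105 kb) and Cbfb (75.0 kb), included 1 with a validation interval (Notch2), 2 with a first-ChIP interval (Runx3 and Notch2) and 1 with a shared one (Notch2), against 11.2%, 4.05% and 1.78% of all shorter domains. The split at 500 kb was chosen after the counts had been seen.

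**Figure D1:**
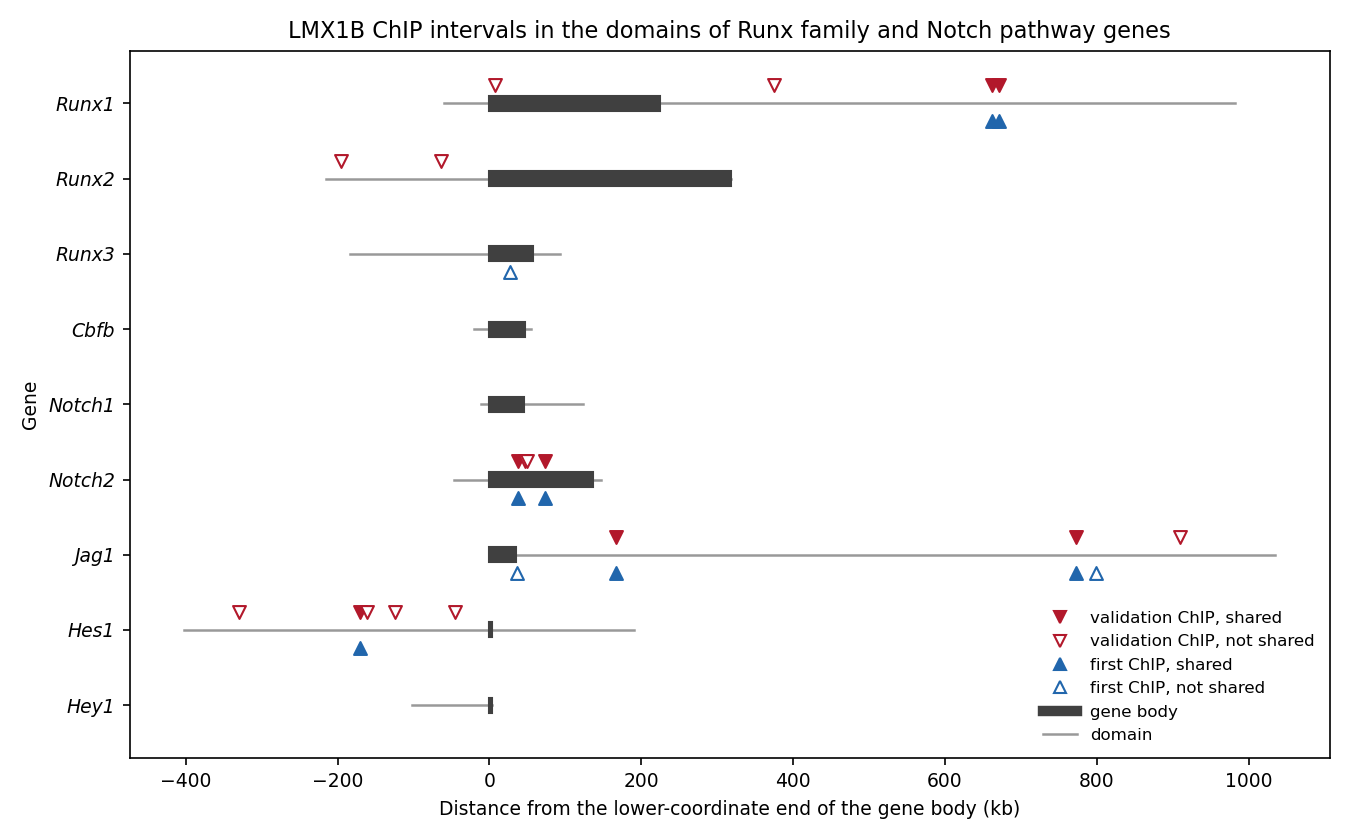
Intervals of the validation ChIP (red, above) and the first ChIP (blue, below) in the 9 domains, by distance in kb from the lower-coordinate end of each gene body; filled symbols are shared intervals, bars are gene bodies and thin lines are domains. The Notch2 intervals lie inside the gene body, those of Jag1 and Hes1 outside it, and the domains of Cbfb, Notch1 and Hey1 are empty.

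Runx1 (chromosome 16, 92601466 to 92826074 on mm10, minus strand) had 4 validation intervals and 2 first-ChIP intervals. The first-ChIP intervals were both shared, and they formed a pair 8.85 kb apart far upstream of the gene. The summit score of an interval is a whole number given by the authors with no stated unit, and it is read here only within its own list. The interval nearer to Runx1 had a score of 10 in the validation ChIP (chr16:93263291-93263766; 24.0% of that list scored lower) and 19 in the first ChIP (chr16:93263325-93263849; 35.4% lower). The farther one had 19 in the validation ChIP (chr16:93272066-93272824; 90.8% lower) and 26 in the first ChIP (chr16:93272181-93272686; 82.7% lower). In each list the farther interval thus had the higher score of the pair. They lay 437 to 446 kb from the distal start site of Runx1 and 311 to 320 kb from Setd4, the gene at the other border, so both were nearer to Setd4. The non-coding gene Gm30588 lay 0.062 kb from the midpoint of the validation interval with score 10. With domains reaching at most 250 kb, or with intervals given to the nearest gene, Runx1 had no shared interval.

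Validation intervals without a first-ChIP counterpart lay inside Runx1, at chr16:92609048-92609655 with a score of 16 (83.3% lower), and 150 kb upstream, at chr16:92975982-92976481 with a score of 10. The intronic or exonic position of the one inside Runx1 was not resolved, since the gene table holds no exons. It lay 88.0 kb downstream of the proximal start site of Runx1. The nearest first-ChIP interval was 654 kb from it and 287 kb from the upstream one.

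Runx2 (chromosome 17, 44495987 to 44814797, minus strand), the osteoblast regulator, had 2 validation intervals and none of the first ChIP. Both had a score of 14, above 73.8% of the validation list. They lay beyond the 3′ end of the gene, at chr17:44432289-44432847, 63.4 kb from it, and at chr17:44300238-44300762, 195 kb from it. The second was 20.3 kb from Clic5, the next gene on that side, and both counted for Clic5 as well. The nearest first-ChIP interval was 620 kb from Runx2, beyond the domain and nearer to Cdc5l. On its 5′ side Runx2 overlaps Supt3, so its domain ends with the gene body there.

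Runx3 (chromosome 4, 135120645 to 135177990, plus strand), which acts with RUNX2 in cartilage, had the opposite arrangement: 1 interval of the first ChIP and none of the validation ChIP. It lay inside the gene at chr4:135146868-135147273, 26.4 kb downstream of the distal start site and 5.47 kb upstream of the proximal one. Its score of 20 was above 44.7% of the first-ChIP list. The nearest validation interval was 395 kb away from it. Cbfb (chromosome 8, 105170674 to 105217989, plus strand) held no interval, in the validation ChIP or in the first ChIP. The nearest ones in any domain lay 327 kb from Cbfb in the validation ChIP and 1654 kb in the first ChIP. An interval outside a domain was not counted for the gene, so an empty domain does not show that the gene lacks a bound region.

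No interval overlapped a RefSeq promoter window (250 bases before to 50 after a start site, GRCm38.p6) of any member. The 9 windows available covered 7 of the 9 genes, without Hes1 and Hey1. The share of all 32851 windows with an interval is not given here, so this count cannot be called particular to these genes. The distal windows of Runx1 and Runx3 and the single window of Runx2 are shown for what they have in common, a stretch of 18 bases that is identical in all 3, found after the windows had been compared. It is printed 5′ to 3′ in capitals, with flanking bases in lower case; its first base lies 26 bases after the start site in Runx1, 21 after it in Runx2 and ahead of it in Runx3.
Runx1, chr16:92826025-92826054, minus strand: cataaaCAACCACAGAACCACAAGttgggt
Runx2, chr17:44814583-44814612, minus strand: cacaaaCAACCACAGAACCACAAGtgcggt
Runx3, chr4:135120503-135120532, plus strand: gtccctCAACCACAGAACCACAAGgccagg
The stretch was found in 4 of 32851 windows on either strand (0.0122%), those of the 3 Runx genes and of Gm16225, a gene next to Runx3. Whether the windows of Runx3 and Gm16225 hold the same copy is not resolved here, so Gm16225 may not be a separate occurrence. It holds 2 copies of ACCACA, which is TGTGGT, the core that RUNX proteins bind, on the other strand. TGTGGT was present on either strand in these windows of Runx1, Runx2 and Runx3, with 2, 3 and 2 matches, and in none of the other 6 member windows, against 16.8% of all windows. The stretch itself supplied 2 of the matches in each of the 3 windows, so the presence of TGTGGT there is not a separate observation. Such a match is a description of sequence. The distances from these start sites to the nearest interval were 150 kb (Runx1) and 382 kb (Runx2) in the validation ChIP and 26.4 kb (Runx3) in the first ChIP.

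Jag1 (chromosome 2, 137081451 to 137116520, minus strand) encodes a Notch ligand. Its domain ran upstream into a gene-poor region toward Btbd3 and ended just beyond its 3′ end, at Slx4ip. It held 3 validation intervals and 4 first-ChIP intervals, the most first-ChIP intervals of any member, and all lay upstream of the gene. The shared interval nearer to Jag1 was 132 kb upstream. Its validation score was 19 (chr2:137247930-137248614; 90.8% of that list lower) and its first-ChIP score 17 (chr2:137247963-137248210; 13.6% lower), so it stood high in the validation list and low in the first-ChIP list. The other shared interval was 737 kb upstream, with a validation score of 17 (chr2:137853296-137854143; 86.6% lower) and a first-ChIP score of 20 (chr2:137853614-137853963; 44.7% lower). It was 403 kb from Btbd3, and thus nearer to that gene than to Jag1.

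The unshared intervals of Jag1 included the one closest to a start site among all members. A first-ChIP interval at chr2:137117441-137117720, with a score of 17, had its midpoint 1.06 kb upstream of the Jag1 start site. Its edge was 671 bp from the promoter window, and the nearest validation interval was 131 kb away. A further first-ChIP interval with a score of 17, at chr2:137880341-137880860, lay 26.9 kb from the distal shared interval. The only unshared validation interval had a score of 11 and lay 875 kb upstream, at chr2:137991198-137991750. On the other side of the gene, outside the domain, a pair of overlapping intervals with a validation score of 10 and a first-ChIP score of 19 lay 125 kb from Jag1, nearest to Slx4ip.

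The bases before the Jag1 start site are shown because of that nearby first-ChIP interval; this window was chosen after the position had been seen, and the interval does not reach into it. Capitals mark TAAT, the core of many homeodomain sites, searched on both strands.
Jag1, chr2:137116521-137116770, minus strand: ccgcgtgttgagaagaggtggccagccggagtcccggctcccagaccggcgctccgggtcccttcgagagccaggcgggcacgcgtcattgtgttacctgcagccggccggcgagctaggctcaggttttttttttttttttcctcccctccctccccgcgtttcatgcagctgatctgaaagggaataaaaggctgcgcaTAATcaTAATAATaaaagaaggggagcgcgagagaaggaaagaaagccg
The 250 bases held 3 matches to TAAT, which was present in 54.9% of the same stretch of all windows. The longer TAATTA, which contains TAAT, was in none of the 9 member windows, against 5.29% of all windows.

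Notch2 (chromosome 3, 98013538 to 98150367, plus strand), a Notch receptor gene, was the member with the closest set of validation intervals. It held 4 validation and 2 first-ChIP intervals, with both first-ChIP intervals shared, and all 6 lay inside the gene body. Of all domains shorter than 500 kb, 0.448% held 4 or more validation intervals and 0.206% held 2 or more shared ones. The first shared interval, 37.8 kb downstream of the start site, had a validation score of 14 (chr3:98051077-98051673; 73.8% lower) and a first-ChIP score of 17 (chr3:98051293-98051572; 13.6% lower). The second, 72.9 kb downstream, had a validation score of 12 (chr3:98086175-98086634; 55.9% lower) and a first-ChIP score of 27 (chr3:98086148-98086672; 85.2% lower). The order of the pair was therefore reversed between the lists, with the first higher in the validation ChIP and the second higher in the first ChIP. The score of 27 was the highest of any member interval in the first ChIP.

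Between them lay 2 validation intervals with a score of 11 each, at chr3:98060383-98061267 and chr3:98063070-98063903. They were 2.66 kb apart and 9.39 and 12.1 kb from the nearest first-ChIP interval. The 4 validation intervals spanned 35.0 kb. Notch1 (chromosome 2, 26457902 to 26503822, minus strand), the other receptor gene among the members, held none, in the validation ChIP or in the first ChIP. The nearest intervals lay 2294 kb from Notch1 in the validation ChIP and 407 kb in the first ChIP, the first-ChIP one with a score of 51 and nearest to Rpl7a, a ribosomal protein gene.

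Hes1 (chromosome 16, 30065357 to 30067796), which encodes a repressor switched on by Notch, had 5 validation intervals, the most of any member, and 1 first-ChIP interval. All 6 lay on the lower-coordinate side between Opa1 and Hes1, and so counted for Opa1 as well. The shared interval lay 171 kb from Hes1 with a validation score of 10 (chr16:29894066-29895012; 24.0% lower) and a first-ChIP score of 19 (chr16:29894557-29894850; 35.4% lower). It was below the median of its list in each ChIP. The highest-scoring validation interval of the domain, with 18 (chr16:29904167-29904717; 89.0% lower), was not shared and lay 9.74 kb from the first-ChIP interval. The others lay at chr16:30019986-30020574 with a score of 10, chr16:29940179-29940842 with 12 and chr16:29734752-29735361 with 11. The first of these, 45.1 kb from Hes1, lay in the non-coding gene 4632428C04Rik, and the last was nearer to Opa1 than to Hes1. Among domains of 500 kb or longer, 15.2% held 4 or more validation intervals.

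Hey1 (chromosome 3, 8663359 to 8667038), which encodes a related repressor, had no interval in its domain of 105 kb, which ended at the predicted gene LOC115489673. With borders set by named genes only, a choice made after the data had been seen, its domain measured 241 kb and still held none. The nearest intervals lay 583 kb from Hey1 in the validation ChIP and 719 kb in the first ChIP. Under the same borders Notch2 gained a validation interval, making 5, and no other member changed its count.

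The members' intervals did not stand high in their lists. The median score was 12 for the 18 validation intervals and 11 for the whole validation list, and 19 for the 10 first-ChIP intervals and 20 for the whole first-ChIP list. Scores ran from 10 to 19 in the validation ChIP, where the list reached 55, and from 17 to 27 in the first ChIP, where the list reached 86. Jag1 and Runx1 held the highest validation scores, 19 each, and Notch2 and Runx1 the highest first-ChIP scores, 27 and 26.

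**Figure D2:**
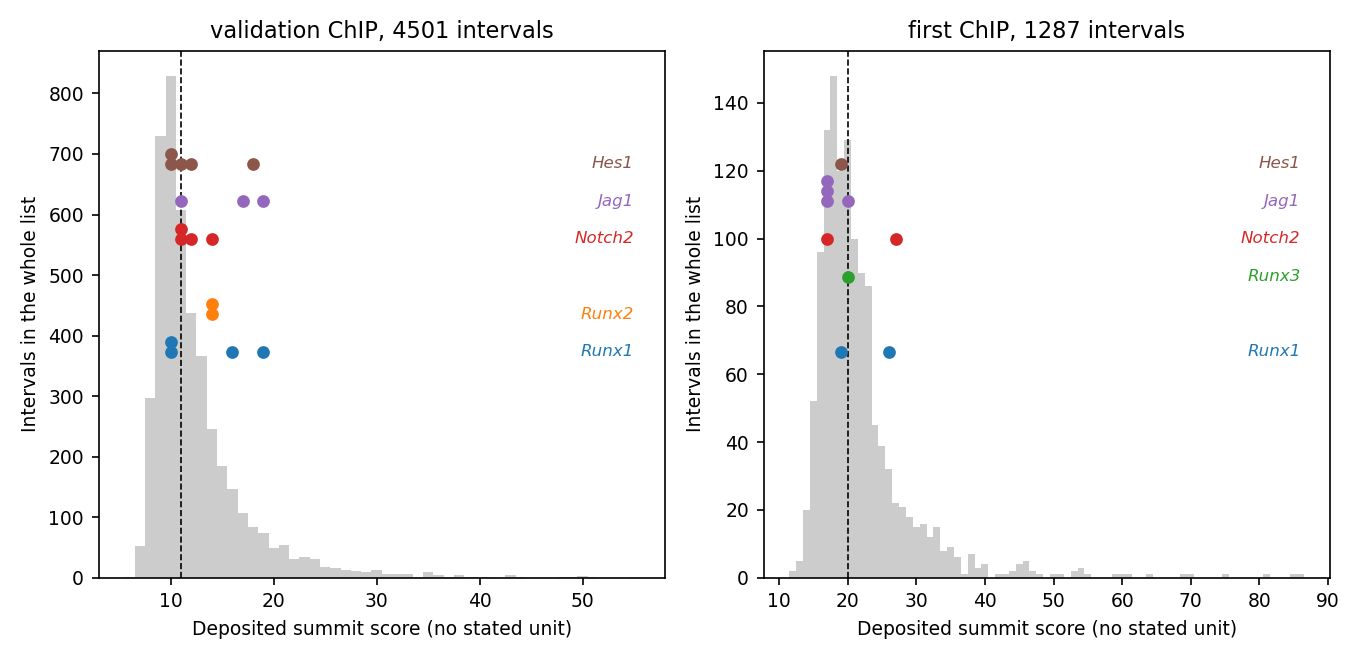
Deposited summit scores of the member intervals (coloured points, 1 row per gene, stacked where equal; their height has no scale) over the histogram of the whole list (grey), with the list's median as a dashed line, for the validation ChIP (left) and the first ChIP (right). Validation scores of the members run from 10 to 19 and first-ChIP scores from 17 to 27, short of the list maxima of 55 and 86.

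The 7 shared pairs had summits between 16 and 96 bp apart, with a median of 32 bp, against a median of 64 bp over all 709 overlapping pairs. Of the 7, 3 overlapped by at least 50% of both intervals, namely both pairs of Runx1 and the second of Notch2, so by that criterion Jag1 and Hes1 had no shared interval. In 5 of the 7 pairs the first-ChIP interval lay entirely within the validation interval. The 7 pairs had a median validation score of 14 and a median first-ChIP score of 19, against 16 and 22 over all pairs.

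**Figure D3:**
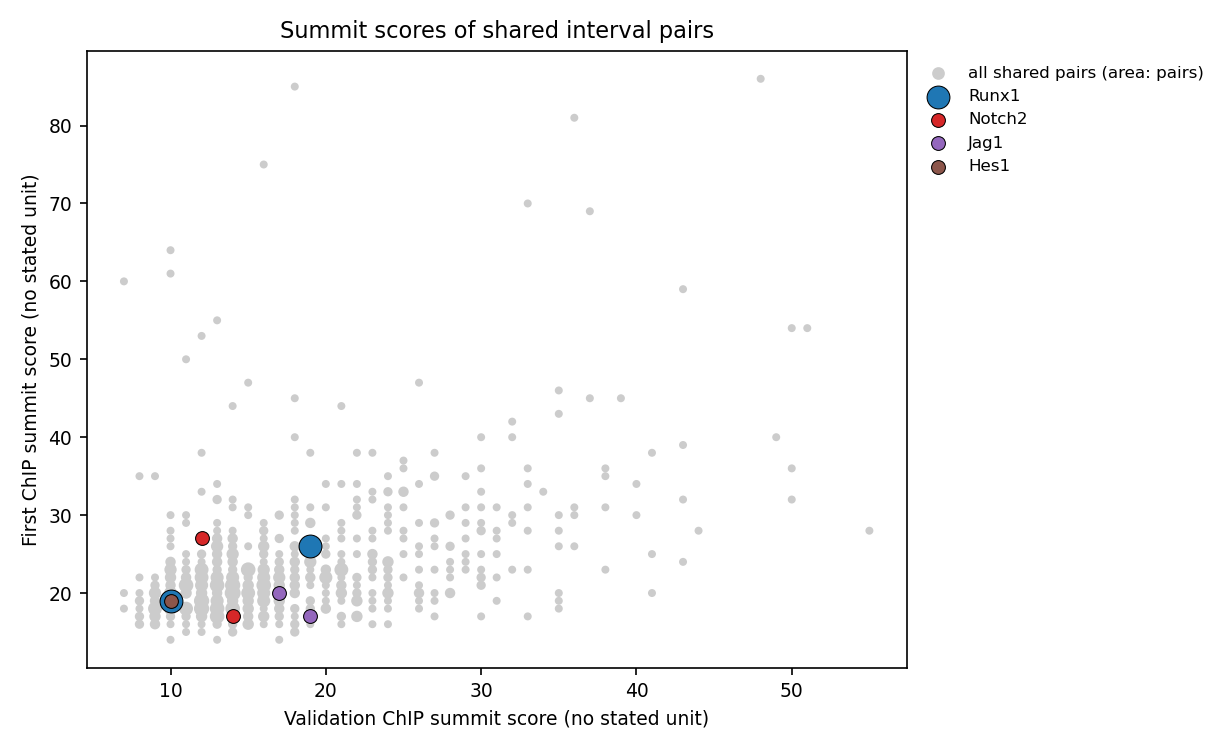
Summit score, validation ChIP on the horizontal axis and first ChIP on the vertical axis, for the 7 shared pairs of Runx1, Notch2, Jag1 and Hes1 (coloured) and for all 709 shared pairs (grey, larger where several coincide). Runx1 has a larger symbol because its pair at 10 and 19 coincides with that of Hes1.

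The members' domains covered 3.99 Mb. They held 4.51 validation intervals per Mb, against 1.69 per Mb in the rest of the protein-coding domains. They held 2.51 first-ChIP intervals per Mb, against 0.479 in the rest, and 1.75 shared intervals per Mb, against 0.262 in the rest. Because the members were chosen with earlier results of these data known, these densities do not measure an enrichment. Of the members' validation intervals, 7 of 18 were shared (38.9%, 95% exact binomial interval 17.3 to 64.3), against 701 of 4501 in the whole list (15.6%, 14.5 to 16.7). Of their first-ChIP intervals, 7 of 10 were shared (70.0%, 34.8 to 93.3), against 707 of 1287 (54.9%, 52.2 to 57.7). These binomial intervals cover counting error only and treat ChIP intervals as independent, although several lay close together in the same domain. The same 7 pairs entered both shares, and no difference was tested. The members were chosen with earlier results known, so these shares do not measure an enrichment either. Midpoints outside any gene made up 12 of 18 validation intervals (66.7%) and 7 of 10 first-ChIP intervals (70.0%), against 45.8% and 41.9% of the whole lists. The rest were the intervals inside Runx1, Runx3 and Notch2 and the one in 4632428C04Rik.

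Other genes of the pathways were described from 6 lists that together named 76 genes, the 9 members among them. Of the 67 further genes, 20 had a validation interval, 9 a first-ChIP interval and 7 a shared one in their domain, against 15%, 6% and 3.39% of all protein-coding domains. Length moved with these counts too. Of the 11 further genes with domains of 500 kb or longer, 10 had a validation interval, 6 a first-ChIP interval and 5 a shared one, against 53%, 25.3% and 19.4% of all domains of that length. Of the 56 with shorter domains, 10 had a validation interval, 3 a first-ChIP interval and 2 a shared one, against 11.2%, 4.05% and 1.78%. Among 7 further Notch ligands and receptors 1 had a validation interval, and none had a first-ChIP or shared one. Of 16 genes for processing and modulation of the receptor, such as the secretases and fringes, 2 had a validation interval and none a first-ChIP or shared one. The validation counts of both lists were near the 15% of all domains. Of 14 further nuclear effectors and targets, 4 had a validation interval and 1 a first-ChIP one, and none had a shared one. The first-ChIP intervals in that list belonged to Maml3, which encodes a coactivator of the NOTCH and RBPJ complex. One with a score of 23, at chr3:52104412-52104969, overlapped only the part of the promoter window after the start site. It did not reach the start site at 52105006. Maml3 was named after its values had been seen. Of 14 skeletal genes linked to RUNX2, 3 had a validation interval and 1, Tnfrsf11b, a shared one. Tnfrsf11b encodes osteoprotegerin, and its shared interval lay 255 kb away with a validation score of 18 and a first-ChIP score of 20, and counted for Samd12 as well. The overlap covered 49.0% of the validation interval, so Tnfrsf11b had no shared interval when 50% of both was required, and none with domains reaching at most 250 kb or with intervals given to the nearest gene.

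The list of RUNX cofactors and modulators held the most. Of its 16 genes, 10 had a validation interval, 7 a first-ChIP interval and 6 a shared one. Its median domain was 304 kb, the longest of the lists after the Runx and Cbf genes (406 kb), with the others between 61.6 and 128 kb. Of its 6 genes with domains of 500 kb or longer, 6 had a validation interval, 4 a first-ChIP interval and 4 a shared one, against the 53%, 25.3% and 19.4% of all such domains. Of its 10 with shorter domains, 4, 3 and 2 did, against 11.2%, 4.05% and 1.78%, and the 2 were Tle2 and Tle5, which counted the same interval. The 6 genes with a shared interval were Zfp521, which encodes a zinc finger antagonist of RUNX2, and Tle1, Tle2, Tle3, Tle4 and Tle5. TLE proteins are corepressors recruited by RUNX and by HES proteins, and TLE5 is a short member of that family that lacks the WD repeats of the others. Tle3 held 3 shared intervals, 1 of them 1.61 kb from the gene with a validation score of 31 (98.8% of the list lower) and a first-ChIP score of 28 (86.9% lower). The other shared intervals of Tle3 lay 200 kb away, with a validation score of 16 and a first-ChIP score of 22, and 423 kb away, with a validation score of 13 and a first-ChIP score of 24. The 200 kb one counted for Rplp1 as well, and the others for Uaca. Zfp521 held 2, at 90.8 kb with a validation score of 14 and a first-ChIP score of 27, and at 655 kb with a validation score of 12 and a first-ChIP score of 23. They counted for Ss18 and Hrh4 as well. Tle4 held 1 and Tle1 held 2, 1 at its start and 1 at 427 kb with a validation score of 14 and a first-ChIP score of 21. The 427 kb one counted for Aldoart1 as well. Tle2 and Tle5 lie next to each other and had the same shared interval between them, which scored 21 (validation ChIP) and 17 (first ChIP). The overlap covered 22.5% of the validation interval, so neither gene had a shared interval when 50% of both was required, nor among intervals at or above the median score of their list. With intervals given to the nearest gene it counted for Tle2 alone. The domains of Tle1, Tle3 and Tle4 measured 1093, 1033 and 1678 kb and that of Zfp521 1602 kb, whereas those of Tle2 and Tle5 were 26.2 and 29.6 kb.

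The bases before the start sites of Tle1 and Tle4 are shown because in both genes a shared interval covered them in full in each list. Both were chosen after the positions had been seen. Among the RUNX cofactors and modulators, Hdac4 and Tle3 also had a validation interval over their promoter window, with scores of 17 and 12. Neither window had a first-ChIP interval. The share of all promoter windows with an interval is not given here, so these promoter overlaps cannot be called particular to RUNX cofactors. At Tle1 the validation score was 13 and the first-ChIP score 19, and at Tle4 the validation score was 16 and the first-ChIP score 22. The overlap at Tle1 covered 47.6% of the first-ChIP interval, short of 50%. Capitals mark TAAT on either strand.
Tle1, chr4:72200894-72201143, minus strand: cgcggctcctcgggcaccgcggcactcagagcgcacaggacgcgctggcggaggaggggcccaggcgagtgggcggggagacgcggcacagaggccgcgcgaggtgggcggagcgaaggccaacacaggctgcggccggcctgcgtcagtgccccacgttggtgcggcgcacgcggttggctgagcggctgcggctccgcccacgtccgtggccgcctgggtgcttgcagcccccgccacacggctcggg
Tle4, chr19:14598184-14598433, minus strand: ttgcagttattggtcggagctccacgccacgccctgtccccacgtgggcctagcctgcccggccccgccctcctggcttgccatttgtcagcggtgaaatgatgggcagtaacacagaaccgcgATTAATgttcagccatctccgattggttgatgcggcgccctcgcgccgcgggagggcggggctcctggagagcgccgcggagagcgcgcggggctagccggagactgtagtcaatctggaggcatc
The Tle1 stretch held no TAAT and that of Tle4 held 2 overlapping matches on opposite strands. Neither held TAATTA, which was in 4.84% of the same stretch of all windows.

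**Figure D4:**
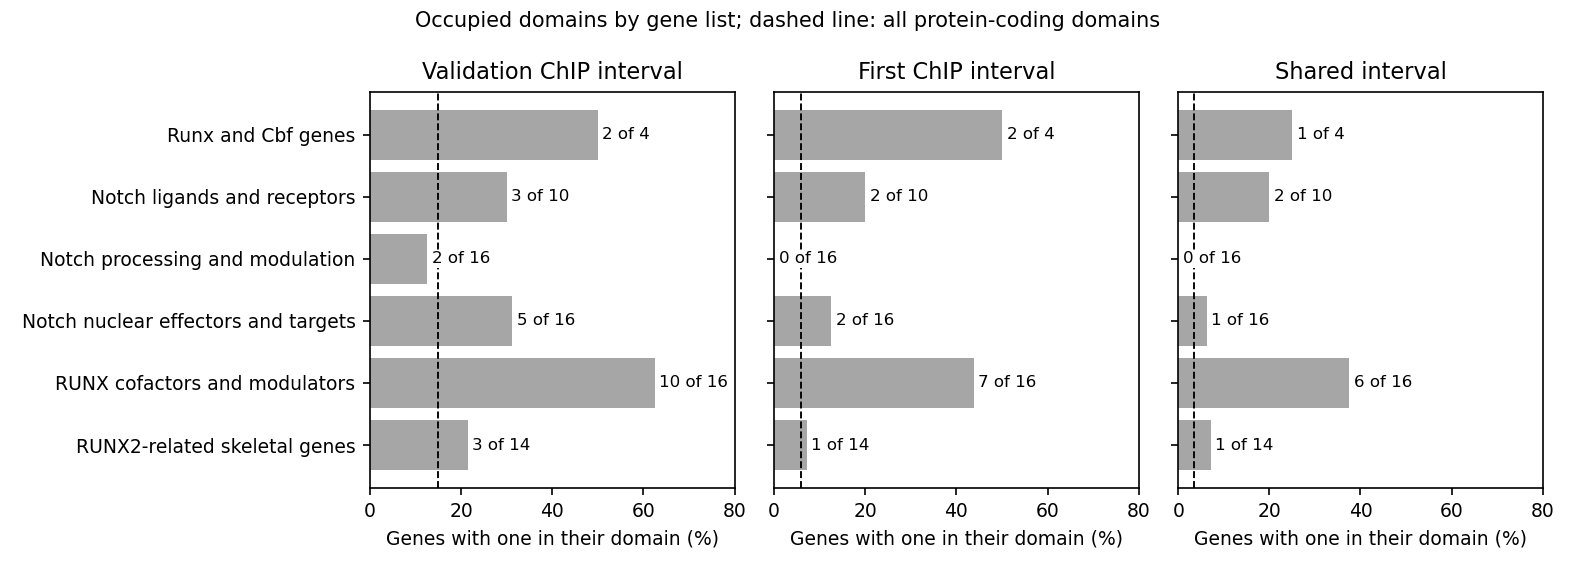
Percentage of genes in each of 6 lists (members included) with an interval in their domain, for the validation ChIP (left), the first ChIP (middle) and shared intervals (right), with counts beside the bars; dashed lines mark all protein-coding domains (15%, 6% and 3.39%). RUNX cofactors and modulators have 10, 7 and 6 of 16, and genes of Notch processing 2, 0 and 0 of 16.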

How the data were processed

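LMX1B ChIP-seq intervals of 2 ChIP samples, 1 per group, were analysed; the input, from pooled wild-type and mutant chromatin, was not used here. The deposited summit score is a whole number per interval with no stated unit; the authors made the interval lists with BWA and mm10 per the submitters' processing notes, and the sources used here do not name the peak caller, its threshold or versions. Sequencing depth is unknown. Rows were tied to samples by track names, and the first ChIP's copy in the validation file, identical except for 1 summit outside the members' domains moved by 16 bp, was counted once.

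Gene positions and promoter windows came from RefSeq tables of GRCm38.p6, which has the chromosome coordinates of mm10; 21887 protein-coding genes on chromosomes were used. Coordinates count from 1. Overlaps, domains and motif counts were computed with Python 3.11.15 and pandas 2.3.3 and tested on simulated data. Named were all 9 members with every interval in their domains, and further pathway genes with a shared interval; other names were chosen after their values were seen. Members, lists and the choice of comparisons were made with earlier results of these data known. Alternatives were overlap of 50% of both intervals, summits within 100 bp, scores at or above the list's median, extension of at most 250 kb and nearest-gene assignment; borders set by named genes only were added after seeing the data.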

Additional observations from a re-analysis of the deposited data

How the results depend on the processing

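The first 4 settings here are stricter by construction. When an overlap had to cover 50% or more of each interval, 2 members (Runx1 and Notch2) had a shared interval, 3 first-ChIP intervals of the members were shared, and 6 genes of all pathway lists had one (Jag1, Hes1, Tle2, Tle5 and Tnfrsf11b did not), against 4, 7 and 11 with overlap of 1 bp. With intervals at or above the median score of their list, 3 shared and 4 first-ChIP intervals lay in member domains, against 7 and 10, and Hes1 had no shared one, leaving 3 members. With domains extended by at most 250 kb there were 4 shared and 6 first-ChIP intervals, and with assignment to the nearest gene also 4 and 6; under both, Runx1 lost its shared intervals, leaving 3 members with one. The remaining values stayed within 1.5 times the reported count or within the 95% interval of the median: members with a shared interval under the other settings, pathway genes, validation intervals (12 to 14 under the stricter settings) and the median scores. The 95% interval of the median was 11 to 16 in the validation ChIP and 17 to 26 in the first ChIP. Member scores in the first ChIP ran from 17 to 27, so its interval is a weak criterion. Borders set by named genes only, added after seeing the data, lengthened domains and gave 19 validation intervals, against 18. No paired analysis was possible because each group is 1 sample and no test was made. No replicate could be left out. Depth is unknown, so intervals missing from a list cannot be called unbound.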
